A study of Mus musculus with 8 samples.

Results

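Connective tissue fibroblasts of newborn mouse parietal bone were selected on the UMIs (unique molecular identifiers, 1 per captured mRNA molecule) of each cell. A fibroblast had UMIs of at least 3 of the 6 genes Dpt, Pi16, Clec3b, Dpp4, Cd34 and Mfap5, under 2 UMIs each of the osteoblast genes Runx2, Sp7 and Ibsp, no UMI of Ptprc, Pecam1 or Rgs5 (blood cells, endothelium, pericytes), and Col2a1 under 1% of its UMIs. The rule found 1191 fibroblasts among 46420 cells that passed quality control, 2.57% of all cells. Because measured UMIs chose these cells, their levels against other cells, and those of the selection genes, are a description.

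Single-cell RNA sequencing was done on parietal bone of pups 4 to 5 days old, strain B6.129(FVB)-Col1a2tm1Mcbr/J, in 8 libraries. The 4 WT libraries (S1, S2, S5, S6) came from pups without the G610C allele of Col1a2, and the 4 Het libraries (S3, S4, S7, S8) from pups with 1 such allele, which replaces a glycine of the procollagen α2(I) triple helix and models osteogenesis imperfecta. The allele is a germline change, so every type I collagen-producing cell of a Het pup carries it. Cells of several pups of a genotype were pooled, so each library counts as 1 replicate. Kit version 3 of the 10x Genomics 3′ chemistry was used for S1 to S4 and version 3.1 for S5 to S8.

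Fibroblasts of connective tissue make the collagens, proteoglycans and elastic fibres of fascia, vessel sheaths and the outer coats of bone. Cells with Pi16 and Dpp4 lie mainly in the sheaths around vessels and in fascia, and are known as a reserve from which other fibroblasts arise. Like osteoblasts they secrete type I procollagen, a trimer of 2 α1 chains (Col1a1) and 1 α2 chain (Col1a2), which folds in the endoplasmic reticulum (ER) with the help of Serpinh1 (HSP47), prolyl hydroxylases and disulfide isomerases. The comparison of Het with WT asks whether these cells respond to misfolded procollagen, for which the study followed the integrated stress response (ISR), a programme of amino acid synthesis, transport and tRNA charging run by ATF4 and ATF5.

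An ISR gene is often switched on through a C/EBP-ATF response element, written here as TGATGNAA on either strand. In the 250 bases before the annotated starts it was found in 1055 of 27018 mouse genes (3.90%) and in 9 of 29 ISR list genes with a promoter entry. Of the 20 ISR list genes called higher in Het mature osteoblasts of S1 to S4 (below), 16 had an entry and 4 held a match. The sequences of 3 of these are shown as examples of the letters. Of the 8 ISR genes whose Het effect was called different between fibroblasts and mature osteoblasts (below), 5 had an entry and 1, Asns, held a match. For Gars and Vldlr that difference was not called. Each is 30 bases, 5′ to 3′ on the strand of the gene, with the match in capitals (RefSeq, GRCm38.p6), and starts are those of the RefSeq table. By the outer bounds of the genes in GENCODE M21, which takes in other transcripts, the stretches of Asns and Vldlr lay within the gene and that of Gars before it. A match is a description of the letters, not a site shown to be used.
Asns (chr6:7693214-7693243, minus strand): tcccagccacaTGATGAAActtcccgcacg
Gars (chr6:55037960-55037989, plus strand): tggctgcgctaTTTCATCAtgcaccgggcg
Vldlr (chr19:27216809-27216838, plus strand): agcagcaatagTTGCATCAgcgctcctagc
In Asns (asparagine synthetase) the match began 23 bases before the RefSeq start and lay on the strand of the gene. In Gars (glycyl-tRNA synthetase) and Vldlr (a lipoprotein receptor) it lay on the other strand, beginning 30 and 200 bases before the RefSeq starts.

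Fibroblasts came almost entirely from the libraries of kit version 3. WT S1 held 329 fibroblasts, 6.89% of its cells (exact Clopper-Pearson 95% interval 6.19% to 7.65%). WT S2 held only 21 (0.442%, 0.274% to 0.674%). Het S3 held 229 (6.73%, 5.91% to 7.62%) and Het S4 held 604 (8.06%, 7.45% to 8.69%). With kit version 3.1 none was found in S5 or S6, which allows shares of up to 0.0264% and 0.0625% by the limit of 3 counts (exact upper bounds 0.0324% and 0.0768%). Het S7 held 1 (0.0189%) and Het S8 held 7 (0.155%, 0.0624% to 0.319%). These intervals and limits cover counting error only. Thus S1, S3 and S4 were alike, S2 was far lower, and the libraries of kit version 3.1 were near 0 in both genotypes.

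**Figure D1:**
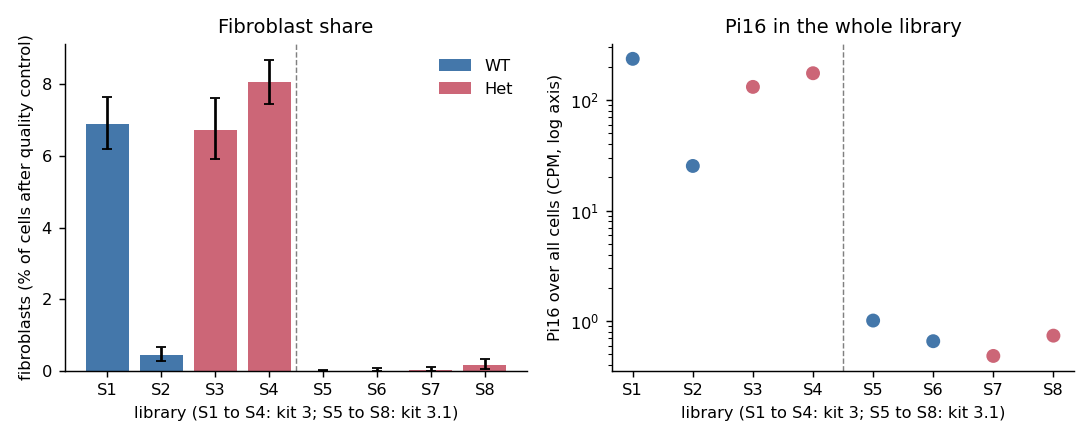
Fibroblasts as percent of the cells after quality control in each library (left, bars with exact 95% binomial intervals) and Pi16 over all cells of the library in CPM (right, log axis). WT libraries are blue and Het libraries red. Shares were 6.73% to 8.06% in S1, S3 and S4, 0.442% in S2 and at most 0.155% in the libraries of kit version 3.1.

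WT libraries had a mean share of 1.83% ± 3.38 (SD, n = 4) and Het libraries one of 3.74% ± 4.25, which differ by 1.91 percentage points, less than the spread within either genotype (two-sided exact permutation test over 70 assignments, p = 0.543, with 0.0286 the smallest p possible). The spread and the test take in both kit versions, whose shares differed (5.79% of cells in version 3 and 0.0308% in version 3.1). No permutation within kit versions was made. Within kit version 3 Het was above WT by 3.72 points and within version 3.1 by 0.0869 points, with 2 libraries a side. Without S2 the difference was 1.44 points over both kits and 0.498 within version 3. Some selection genes were also near 0 over whole libraries of version 3.1. Pi16, a secreted peptidase inhibitor, stood at 236 CPM (UMIs per 1000000 UMIs) over all cells of S1, 25.4 in S2, 132 in S3 and 175 in S4, but at 0.483 to 1.01 CPM in S5 to S8. Clec3b (tetranectin) stood at 76.2 to 104 CPM in S1, S3 and S4, at 2.27 in S2 and at most 0.650 in S5 to S8. Dpt did not follow this fully, at 47.1 to 83.7 CPM in S1, S3 and S4 but at 6.31 in S2 and 6.17 to 17.4 in S5 to S8. Dcn and Col3a1, which other mesenchymal cells also make, were present in all 8 libraries. Kit version, counting software and whatever else changed between the sets of libraries cannot be told apart. The share depends on what it is a share of: with cells of 3 or more haematopoietic markers out of the denominator, Het lay below WT by -0.0475 points (exact permutation p = 1).

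Fibroblast sums held 2120109 UMIs in S1, 159124 in S2, 1470493 in S3 and 2418734 in S4, with median depths of 6299, 7606, 5874 and 3429 UMIs per cell. No fibroblast barcode was shared between libraries. S2 stood apart in more than cell number. Its summed log2 CPM correlated with the other libraries at Pearson's r of 0.775 to 0.789 over 10197 genes (a description over genes), against 0.943 to 0.970 among S1, S3 and S4. Haemoglobin and Alas2 RNA (5 erythroid markers) summed to 75413 CPM in S2 fibroblasts, 13246 in S1, 13839 in S3 and 2298 in S4. Comparisons of genotypes are therefore given with and without S2, for lists by their medians, and without it WT is 1 library.

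The label was checked with markers that the rule did not use. Dcn (decorin) had a UMI in 97.6% to 100% of fibroblasts of S1 to S4, against 4.92% to 36.7% of haematopoietic cells of the same libraries (median depths 3430 to 5387.5 UMIs). Col3a1 (type III collagen) stood at 28535 CPM in S1, 19029 in S2, 18173 in S3 and 19842 in S4, against 147 to 619.6 CPM in haematopoietic cells and 3591 to 4900.05 CPM in differentiating osteoblasts of the same libraries. It had a UMI in 20.1% to 69.8% of haematopoietic cells, so that its detection alone marks no fibroblast. The comparison with haematopoietic cells does not tell fibroblasts from other mesenchymal cells, which also make Dcn and Col3a1. Markers of nearer cell types were present. Of the suture or periosteal list, Postn stood at 1757, 1772, 1151 and 1347 CPM in S1 to S4. Prrx1 stood at 800 to 1006, Ctsk at 233 to 308 and Twist1 at 119 to 214, while Gli1, Axin2 and Six2 reached at most 37.7. Of the dermal list, Dlk1 stood at 498 to 946 CPM and the others reached at most 50.3. Pdgfra, a growth factor receptor of fibroblasts, was found in 54.4%, 33.3%, 54.1% and 40.1% of them, against at most 4.03% of haematopoietic cells. Of the muscle markers, Myod1, Myf5 and Pax7 had no UMI in fibroblasts of S1 to S4. Des stood at 0.472, 0, 2.72 and 4.13 CPM and Acta1 at 0.472, 0, 11.6 and 0 CPM. Of 6 markers of adipocytes and their precursors, Plin1 had none, Adipoq reached at most 0.413 CPM and Pparg 1.36, but Cebpa stood at 0.680 to 12.6 CPM, Fabp4 at 6.28 to 17.0 and Lpl (lipoprotein lipase) at 227, 151, 175 and 222, against 48.1 to 85.8 CPM of Lpl in haematopoietic cells. Of 4 keratinocyte markers, Krt5, Krt14 and Epcam reached at most 0.413 CPM, and Krt10 stood at 27.8, 18.9, 29.2 and 29.8 CPM, against 4.82 to 8.10 in haematopoietic cells. Of 6 pericyte or smooth muscle markers, Rgs5 was at 0 by the rule and Myh11 at most 0.413 CPM, but Kcnj8 stood at 326, 126, 242 and 319.6 CPM and Abcc9 at 108, 69.1, 80.9 and 103. The 6 pericyte or smooth muscle markers summed to 339 to 526 CPM. The part of such cells in the results was not tested.

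Cells with all 6 selection markers numbered 704 (59.1%), and 199 had exactly 3. The cells at the threshold were not like the rest. Those with all 6 had 25158 to 33172 CPM of Col3a1 in S1 to S4 and at most 18.1 CPM of Tnmd (tenomodulin, a tendon gene). Those with exactly 3 had 5385, 20224, 6708 and 6918 CPM of Col3a1, and 72.1, 0, 466 and 544 CPM of Tnmd. Cells just outside, with 2 markers and the other conditions met, had 5376, 7130, 5438 and 5080 CPM of Col3a1. So in S1, S3 and S4 the cells just inside resembled those just outside more than they resembled the bulk of the fibroblasts.

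Against all other cells of the same library, 20 genes led (mean of at least 100 CPM, higher in all 4 libraries, ordered by the mean log2 ratio with 10 CPM added). Of these, 5 were selection genes and 15 were not. Elastic fibre and matrix genes were among the 15. Fbn1 (fibrillin 1, the backbone of microfibrils) stood at 4461 CPM in S1, 1477 in S2, 2751 in S3 and 3216 in S4, against 33.6 to 180 CPM in other cells. Tnxb (tenascin X) stood at 1100 CPM in S1, 277 in S2, 573 in S3 and 752 in S4, against at most 17.9 in other cells. Efemp1 (fibulin 3) and Col8a1 were also in this group. Surface proteins and receptors made a further set. Ly6a (Sca-1) ran from 899 CPM (S2) to 3139 (S1), against 20.03 to 90.4 in other cells. Cd248 (endosialin) ran from 283 CPM (S2) to 1073 (S1), and the ferritin receptor Scara5 from 358 (S2) to 918 (S1). Among secreted factors were Igfbp6 (an IGF-binding protein, 848 to 1525 CPM), Nov (CCN3, 540 to 2057), Sema3c (691 to 1710) and Wnt2 (132 to 360). In 14 of these 15 genes, S2 was the lowest library and S1 the highest. The exception was Col8a1, a network collagen, at 1527 CPM in S1, 4003 in S2, 3910 in S3 and 3715 in S4.

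Fibroblasts fell into 6 clusters by variable genes. In clusters 1, 2 and 5, called Pi16-high here, most cells had all 6 selection markers. They held 814 cells (68.3%), and Ly6a, Fbn1, Sema3c, Cd55 and Anxa3 of the adventitial marker list were abundant in them. They made up 86.0% of S1, 14.3% of S2 (3 cells), 56.8% of S3 and 65.9% of S4 fibroblasts. Within them the libraries sorted unequally: cluster 1 (Smpd3, Pi16, Lpl, Clec3b) took 5.78% of S1 but 48.9% of S3 and 55.5% of S4, while cluster 2 (S100a9, S100a8, Akr1c18, Pi15, Efemp1) took 68.1% of S1, 6.11% of S3 and 9.27% of S4. S100a8 and S100a9, which lead cluster 2, are neutrophil genes and stood at 29281 CPM or more in haematopoietic cells of S1 and S2 and at 3730 to 15494 in those of S3 and S4. Their part in the split between clusters 1 and 2 was not tested.

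**Figure D2:**
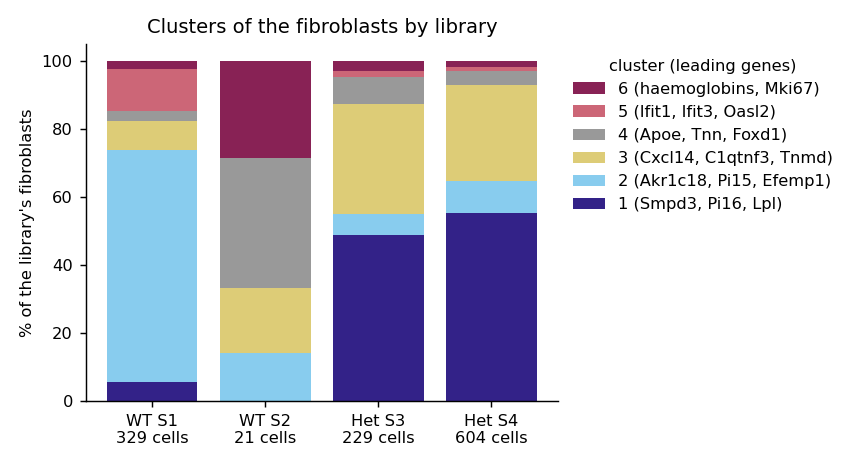
Share of each library's fibroblasts (percent, y axis) in 6 clusters, coloured and named by leading genes, for WT S1 and S2 and Het S3 and S4 (numbers of cells under the bars). Cluster 2 holds 68.1% of S1 and cluster 1 holds 48.9% and 55.5% of S3 and S4, while S2 has 21 cells spread over 4 clusters.

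Cluster 3 held 282 cells (23.7%) with low Pi16 and high Cxcl14, C1qtnf3, Mgp and Tnmd. It took 8.51% of S1 (28 cells), 19.0% of S2 (4 cells), 32.3% of S3 and 28.1% of S4, and 6 of the 7 fibroblasts of S8. Only 4.96% of its cells had all 6 selection markers and 16 were marked as likely doublets. Cluster 4 (64 cells) was led by Apoe, Tnn, Foxd1 and cartilage genes, and cluster 6 (31 cells, 10 of them marked as likely doublets) by haemoglobins with Mki67 and Top2a. Both were left unnamed. They took 38.1% and 28.6% of S2, against 3.04% to 7.86% and 1.66% to 3.06% of S1, S3 and S4.

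Set against each other in the libraries with enough cells of both, S1, S3 and S4, the Pi16-high cells and cluster 3 made different matrix and signals. Since the genes also formed the clusters, the values are a description. Pi16 stood at 3744, 3909 and 3841 CPM in Pi16-high cells and at 484, 413 and 487 CPM in cluster 3 (order S1, S3, S4). Dpt (dermatopontin, which binds decorin and collagen) stood at 1363, 1150.0 and 1191 CPM against 36.6, 36.3 and 43.9. In both the 3 libraries lay close together and the cell groups did not overlap. Akr1c18, a steroid-metabolising reductase, stood at 901, 643 and 815 CPM against 0, 12.1 and 3.47 CPM. Postn (periostin) stood at 2139.9, 1890.1 and 2209.6 CPM against 73.2, 366 and 185. Tnxb, Efemp1, Plat (tissue plasminogen activator), Bmp3 and the transcription factors Creb5 and Osr1 were on the same side in all 3.

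On the side of cluster 3, Cxcl14 (a chemokine) stood at 2393, 1523 and 1520 CPM against 2.99, 15.01 and 5.32 in Pi16-high cells. Col8a1 stood at 10087, 8259 and 8423 CPM against 365, 1088 and 1002. Mgp (matrix Gla protein, an inhibitor of calcification) stood at 3422, 4628 and 4000.2 CPM against 72.4, 357 and 247. The growth factor Igf1 stood at 850.5, 787 and 954 CPM against 83.7, 146 and 123. Tnmd differed among the libraries of cluster 3, at 77.3 CPM in S1, 299 in S3 and 439 in S4, and was at most 3.04 CPM in Pi16-high cells. Fmod (fibromodulin), Col11a1 and Col12a1 were also higher in cluster 3 in all 3 libraries. The 2 cell groups did not overlap for any of the 24 genes of the plot of both groups, which were chosen for this difference.

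**Figure D3:**
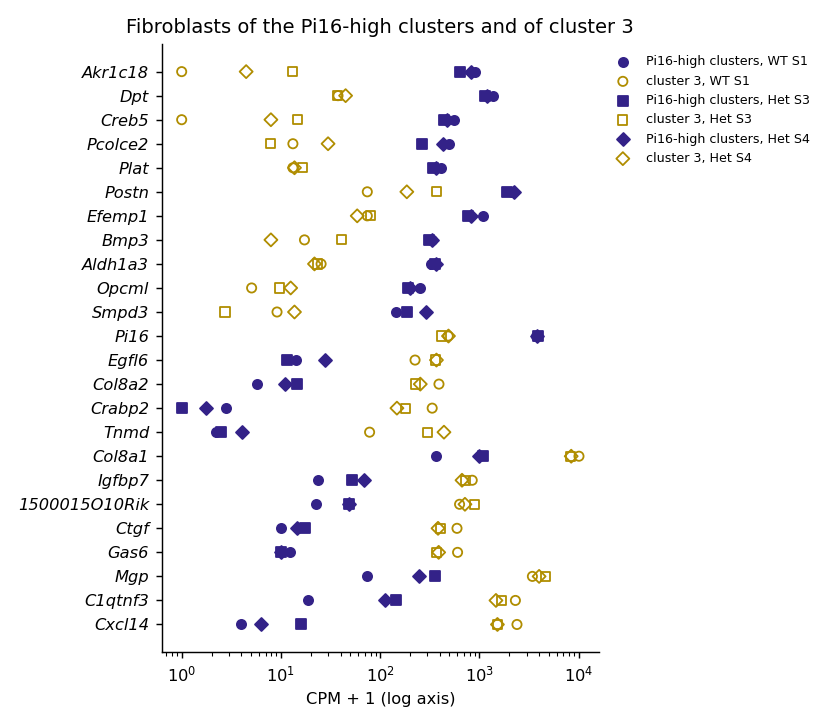
CPM + 1 (log axis) of the 12 genes with the largest mean log2 ratio in each direction between the Pi16-high clusters (filled) and cluster 3 (open) in WT S1, Het S3 and Het S4. For Pi16, Pi16-high cells lay at 3744 to 3909 CPM and cluster 3 at 413 to 487 CPM, and the cell groups do not overlap for any gene shown.

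Cluster 5 (51 cells) was led by interferon-stimulated genes, Ifit1, Ifit3, Oasl2, Bst2 and Isg15. It held 12.2% of S1 fibroblasts (40 cells), none of S2, 1.75% of S3 (4 cells) and 1.16% of S4 (7 cells). Over all fibroblasts Ifit1, which binds foreign RNA, stood at 93.9 CPM in S1, 0 in S2, 17.7 in S3 and 17.8 in S4. In mature osteoblasts it stood at 0 to 0.723 CPM in the same libraries and in haematopoietic cells at 1.20 to 13.1 CPM. In fibroblasts S1 was the highest library. S2 had no UMI of Ifit1 among 159124, too few UMIs to place it below the Het libraries. These genes were described after their values were seen.

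For the comparison of Het with WT, counts were summed per library and tested with edgeR's quasi-likelihood test. Only S1 and S2 against S3 and S4 had 10 or more fibroblasts, so the kit version did not enter. Of 10197 genes tested, 5 were called (0.0490%, Benjamini-Hochberg adjusted p under 0.05), and all 5 were higher in Het. Col2a1, among them, is a gene of the selection rule, so its call is no finding. Before adjustment 467 had a p under 0.05. DESeq2 called 19, of which 5 were higher and 14 lower in Het, so the direction of the calls depended on the method. Without S2 there were 485 of 10821 called (4.48%), 238 higher and 247 lower, with S1 as the only WT library, and without S1 there were 391. Without S3 there were 0 (112 at an unadjusted p under 0.05) and without S4 also 0 (99). In the Pi16-high clusters alone, S1 against S3 and S4, 51 of 9516 genes were called (0.536%), 24 higher and 27 lower, a comparison added after the results were seen.

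The genes called were cartilage genes. Apart from Col2a1 they were near 0 in WT, with at most 9 UMIs of Col9a3 or Col9a2 in S1 and none in S2, so they entered the fit through the Het libraries alone. A gene that enters this way had to differ, so the calls are a description, and the fitted changes depend on the prior count. Col9a3 (chromosome 2, 180597790 to 180622189, GRCm38), which encodes a chain of type IX collagen, stood at 3.88 TMM-scaled CPM in S1, 0 in S2, 77.1 in S3 and 64.0 in S4 (8, 0, 110 and 155 UMIs), a fitted log2 change of 4.26 that ran from 4.14 to 9.54 with 1 library out, the highest without S1. Col9a2, another chain, stood at 4.37, 0, 65.9 and 49.6 CPM, a fitted log2 change of 3.803 that ran from 3.67 to 9.24. For 3110079O15Rik (chromosome 1, 87470271 to 87475482), a gene of cartilage, the values were 2.91, 6.13, 64.5 and 50.4 CPM, a fitted log2 change of 4.13. Cnmd (chondromodulin), under the 20 CPM minimum for naming and named here after its values were seen, stood at 1.46, 0, 36.5 and 31.8 CPM. Col2a1, the main cartilage collagen, stood at 18.9, 18.4, 234 and 185 CPM, given as a description since the rule capped it. Het and WT libraries did not overlap in these genes, as in 32.6% of all genes tested. Without S3 or without S4 none of them was called. A few cells carried much of this RNA. Cluster 4 was formed on variable genes, and 3110079O15Rik, Col9a2 and Cnmd were among its leading genes, so its part is a description. Cluster 4, with 18 cells (7.86%) of S3 and 26 (4.30%) of S4, held 30 of 110 UMIs of Col9a3, 44 of 94 of Col9a2, 46 of 92 of 3110079O15Rik and 26 of 52 of Cnmd in S3. In S4 it held 80 of 155, 73 of 120, 90 of 122 and 45 of 77 of these.

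Cartilage RNA was also higher in other cells of these libraries. In haematopoietic cells, which do not make it, Col9a3 stood at 57.1 CPM in S1, 29.4 in S2, 332 in S3 and 147 in S4, and Col2a1 at 232, 137, 1227 and 469. Cells with Col2a1 at 1% of UMIs or more numbered at most 150 in S1 and S2, 760 in S3 and 1129 in S4. Of the fibroblasts, 0.608%, 0%, 10.5% and 3.97% had 3 or more of 7 chondrocyte markers, which summed to 38.2, 44.0, 428 and 371 CPM. Col2a1 and Col9a2 are among the 7, so these sums hold the called genes themselves. The part of free cartilage RNA in these calls was not tested. With fibroblasts of 3 or more markers of another class left out, none of them was called, but that setting removed cells partly by Col2a1 and Col9a2 and is no separate check of these genes. With likely doublets left out no gene was called by edgeR (297 at an unadjusted p under 0.05), and the log2 changes of the 4 outside the rule ran from 3.39 (Col9a2) to 4.19 (Cnmd). With 2 of 6 markers enough, where S5 entered with 15 cells, the changes were smaller: 1.24 for Col9a3, 1.32 for Col9a2, 2.02 for 3110079O15Rik and 2.45 for Cnmd, and Col2a1 stood at 0.04. None of them was called then, and the 4 genes that were called were lower in Het.

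**Figure D4:**
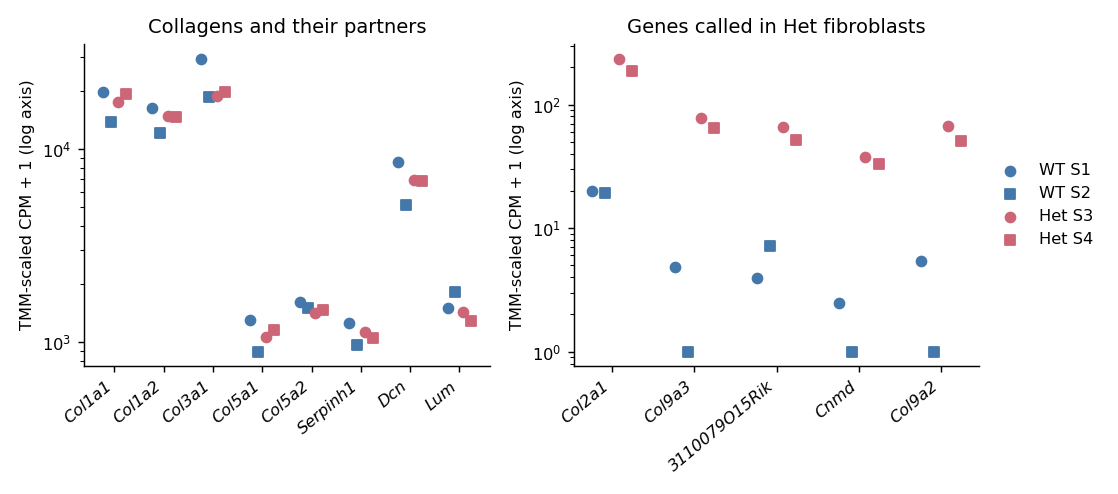
TMM-scaled CPM + 1 (log axes) of collagens and related genes (left) and of the 5 genes called higher in Het fibroblasts (right), 1 point per library, WT blue and Het red. Col1a1 and Col1a2 overlap between genotypes, and the 5 called genes do not, with Col9a3 at 0 and 3.88 in WT and 64.0 and 77.1 in Het. Col2a1 is a gene of the selection rule.

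Of 239 genes in 16 lists of fibroblast biology and cell stress, 220 were tested and edgeR called none, against 0.0490% over the whole table. Before adjustment 24 had a p under 0.05, against 4.58% of all genes tested. DESeq2 called 2 (Mki67 and Top2a, both lower in Het), against 0.186% of all genes. The median log2 change over all genes tested was 0.01. Without S2, with S1 as the only WT library, 4.48% of all genes were called (2.20% higher, 2.28% lower), and the counts of list genes below are to be read against this. In that setting S1 had 8.51% of its fibroblasts in cluster 3, against 32.3% and 28.1% in S3 and S4, and the part of this in the calls was not tested. The lists are taken in turn, starting with the mutant protein.

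Type I collagen mRNA in fibroblasts overlapped between genotypes. Col1a1 stood at 19762 CPM in S1, 13709 in S2, 17555 in S3 and 19270.3 in S4, a log2 change of 0.14 ± 0.38 (SE). Col1a2, the gene that carries the mutation, stood at 16332, 12065, 14800 and 14717 CPM, a log2 change of 0.06 ± 0.36. Both Het libraries lay between the 2 WT libraries for both genes. Col3a1, at 29364 CPM in S1 and 18573 to 19819 in the others, had a log2 change of -0.31 ± 0.40. Over 10 fibrillar and fibril-associated collagens the median was 0.02, and Col11a1 alone had an unadjusted p under 0.05 (68.9, 184, 367 and 280 CPM). Without S2 the median was -0.16 and Col11a1 and Col12a1 were called, 2 of 10. Col1a1 and Col1a2 then had log2 changes of -0.11 and -0.15, not called.

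Of the network collagens, Col4a1 and Col4a2 (basement membrane) and Col8a1 were lowest in S1 and called higher without S2. With S2 they were not called. Col4a1 stood at 142 CPM in S1, 1196 in S2, 319.7 in S3 and 268 in S4, so the WT libraries lay on either side of both Het libraries. The median of this list turned from -0.48 to 1.12 without S2, and was -1.46 without S1.

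The procollagen folding and processing list had 24 members, all tested, with a median log2 change of 0.01 and a range of -0.50 to 0.59. Serpinh1, the collagen chaperone, stood at 1249.8 CPM in S1, 957 in S2, 1123 in S3 and 1041 in S4. P4hb, a subunit of prolyl 4-hydroxylase and a disulfide isomerase, stood at 355, 356, 381 and 336 CPM, with the Het libraries on either side of both WT libraries. Lox, which cross-links collagen, stood at 430.0, 650.2, 876 and 728 CPM (log2 change 0.59 ± 0.30, not called) and was called without S2. Without S2 the list's median was -0.02. Pcolce2, an enhancer of procollagen cleavage, stood at 409, 73.6, 130.4 and 253 CPM, with both Het libraries between the WT libraries.

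Elastic fibre genes (15 of 15 tested) had a median of 0.12 (0.22 without S2, with 2 called higher and 3 lower). Eln (elastin) stood at 1448 CPM in S1, 1558 in S2, 1604 in S3 and 1765 in S4, a log2 change of 0.17 ± 0.27. Ltbp2, which binds fibrillin, had an unadjusted p under 0.05 (14.6, 12.3, 42.1 and 30.6 CPM). Among proteoglycans (10 of 10 tested, median 0.04, or 0.02 without S2 with 2 called higher), Dcn stood at 8524, 5091, 6918 and 6819 CPM and Lum (lumican) at 1502, 1822, 1435 and 1283. Fmod (fibromodulin), of tendon and cartilage, came nearest to a call, at 39.3, 42.9, 157 and 147 CPM (log2 change 1.92 ± 0.24, edgeR adjusted p = 0.0718). Its Het and WT libraries did not overlap, as in 32.6% of all genes tested. Fmod stood at 28.3, 10.8, 110.2 and 67.9 CPM in haematopoietic cells.

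Growth factor and signalling genes came next. The IGF system had a median of 0.11 (10 of 10 tested), or 0.33 without S2 with 3 called higher, with Igfbp5, an IGF-binding protein of the matrix, at 8072, 3901, 7034 and 8059 CPM. Wnt and BMP modulators had a median of 0.09 (13 of 14 tested), which was -0.07 without S2 (3 called higher, 2 lower) and 0.60 without S1. Of these, the secreted Wnt antagonist Sfrp2 stood at 944, 1061, 2188 and 1774 CPM (log2 change 0.99 ± 0.29) and its relative Sfrp1 at 52.4, 92.0, 142 and 136 CPM (1.18 ± 0.28). Neither was called with all 4 libraries, and both were called without S2, with the clusters as unequal as said. Fst (follistatin, which binds activin) was lower in both Het libraries, at 102, 67.5, 56.1 and 53.3 CPM (-0.78 ± 0.23, not called). Levels of Het and WT did not overlap in 32.6% of all genes tested. TGF-beta response genes had a median of 0.14 (11 of 14 tested), but 0.64 without S2 (5 called higher) and -0.45 without S1. Within them the contractile genes Acta2 and Tagln were low in S1 only, Acta2 at 10.7 CPM against 79.7 in S2, 111 in S3 and 81.4 in S4. Transcription factors of fibroblast identity had a median of 0.00 (14 of 16 tested; -0.03 without S2, 0.47 without S1), Prrx1 for example at 824, 981, 893 and 901 CPM. The chemokines and complement genes (13 of 16) had a median of 0.11, which was -0.03 without S2 and 0.90 without S1. Surface proteins (10 of 10) had a median of 0.08, which was -0.32 without S2 and 0.78 without S1. Medians of these lists thus changed sign or size with the WT library that was left out.

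Cell cycle genes had the lowest median, -1.53 (10 of 10 tested and fitted lower, 4 with an unadjusted p under 0.05, none called). Mki67, a mark of dividing cells, stood at 79.1 CPM in S1, 423 in S2, 35.8 in S3 and 28.9 in S4. Cluster 6, which had these genes with haemoglobins, held 6 of the 21 fibroblasts of S2. Without S2 the median was -0.66 and 4 of 10 were called lower, against 2.28% of all genes, and in the Pi16-high clusters the median was -0.66 over 4 tested with none called. Without S1 it was -2.93 with 7 of 10 called lower, against 2.38% of all genes. With fibroblasts holding erythroid RNA or markers of another class left out, a setting that dropped S2 and was chosen after seeing the data, the median turned to 0.88 over 7 tested, none called.

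Dissociation-induced genes (13 of 15 tested) had a median of 0.13, which ran from -0.61 without S1 to 0.48 without S2 (5 called higher), with Jun at 446, 478, 281 and 381 CPM, and Fos at 18.9, 30.7, 29.4 and 62.8.

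No gene of the 3 stress lists was called between Het and WT fibroblasts. Of 34 ISR genes 27 were tested, 10 fitted higher and 17 lower, with a median log2 change of -0.05 and a range of -0.93 to 0.51. Summed over the list, ISR RNA came to 1672 CPM in S1, 1445 in S2, 1628 in S3 and 1615 in S4. Atf5, whose product drives part of the ISR, stood at 140.3 CPM in S1, 73.6 in S2, 98.2 in S3 and 103 in S4, a log2 change of -0.26 ± 0.27, or -0.48 without S2, not called. Both Het libraries lay between the WT libraries. Atf4, which encodes the main ISR factor and is controlled largely by translation, stood at 132, 141, 123 and 100.8 CPM. Asns stood at 11.2, 6.13, 16.8 and 12.4 CPM, a log2 change of 0.43 ± 0.43. Ddit3 (CHOP), a stress-induced factor, stood at 38.3, 24.5, 29.4 and 26.02 CPM. Slc7a1, a carrier of basic amino acids, was the ISR gene with an unadjusted p under 0.05, and it was lower in Het (34.0, 36.8, 16.1 and 19.4 CPM, log2 change -0.93 ± 0.27). Without S1 the ISR median was 0.25. Without S2 it was -0.04 and Slc7a1 was called lower, and in the Pi16-high clusters the median was -0.12 with none called.

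The ER unfolded protein response list (20 of 20 tested) had 18 genes fitted higher and 2 lower, a median of 0.15, and none with an unadjusted p under 0.05. Over all genes tested, 5201 of 10197 were fitted higher. The 20 genes were read from the same 4 libraries and are not 20 separate observations. Hspa5 (BiP), the ER chaperone that signals unfolded protein, stood at 811 CPM in S1, 803 in S2, 1081 in S3 and 980 in S4, so that both Het libraries were above both WT libraries (log2 change 0.35 ± 0.26, or 0.34 without S2, not called in either), as in 32.6% of all genes in 1 direction or the other. The list's median was 0.12 without S2, 0.09 without S3, 0.32 without S4 and 0.04 in the Pi16-high clusters. Mitochondrial chaperones and proteases (12 of 12 tested) had a median of 0.11, which was -0.04 without S2 and 0.56 without S1. Hspa9 (mt-HSP70) stood at 67.0, 36.8, 63.8 and 66.9 CPM, a log2 change of 0.10 ± 0.24 (-0.03 without S2). Clpp, a matrix protease, stood at 35.9, 36.8, 58.2 and 51.6 CPM (0.60 ± 0.22, or 0.59 without S2, not called in either).

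Whether this differed from osteoblasts was tested in the same libraries. Mature osteoblasts (Col1a1 of at least 10 UMIs and over 3.5% of UMIs, 2 UMIs in each of at least 2 of Runx2, Sp7 and Ibsp) numbered 73, 77, 79 and 192 in S1 to S4. In a fit with the library as a block, the Het effect differed between fibroblasts and mature osteoblasts in 49 of 10324 genes (0.475%), 19 higher and 30 lower in fibroblasts (0.291% lower). Of the 33 ISR genes tested in it, 8 were among the 30. The difference over the list had a median of -1.21, against -0.01 over all genes. With fibroblast sums alone 27 of the list were tested. This median thus holds members that entered only with the osteoblast sums. In mature osteoblasts of these libraries 20 of the ISR genes were called higher in Het and 1 lower, against 2.62% of all genes called higher. The ISR list was known to rise in these osteoblasts before it was used here, so that side is not independent.

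Atf5 stood at 120.0, 62.9, 83.8 and 87.8 CPM in fibroblasts of S1 to S4 and at 52.8, 47.6, 278 and 227 CPM in mature osteoblasts, on the common scale of this fit. The Het effect was lower in fibroblasts by a log2 difference of -2.51 ± 0.30 (edgeR adjusted p = 0.00800). In WT libraries Atf5 was thus higher in fibroblasts than in osteoblasts, and in Het libraries lower. Slc7a5, a carrier of large amino acids, stood at 8.72, 5.24, 4.79 and 7.41 CPM in fibroblasts and at 7.96, 7.79, 87.3 and 88.4 in osteoblasts (difference -3.81 ± 0.55). Asns stood at 9.55, 5.24, 14.4 and 10.6 CPM against 41.3, 44.2, 320.5 and 273 (-2.39 ± 0.42). Phgdh and Psph, enzymes of serine synthesis, differed by -2.22 ± 0.29 and -3.02 ± 0.47. Some fibroblast values rest on few UMIs. Slc7a5 had 21, 1, 8 and 21 UMIs in S1 to S4. In S2, Asns and Psph had 1 UMI each and Atf5 had 12. Slc1a5 (a glutamine carrier), Sars (seryl-tRNA synthetase) and Eif4ebp1 (a brake on translation) differed by -2.65 ± 0.41, -1.71 ± 0.27 and -1.39 ± 0.24. The osteoblast levels of Het and WT did not overlap in any of the 8, as in 46.2% of all genes of this fit. The fibroblast levels overlapped in 5 (over all genes, 32.5% did not overlap), and in the others Asns and Eif4ebp1 were higher and Phgdh lower in both Het libraries.

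**Figure D5:**
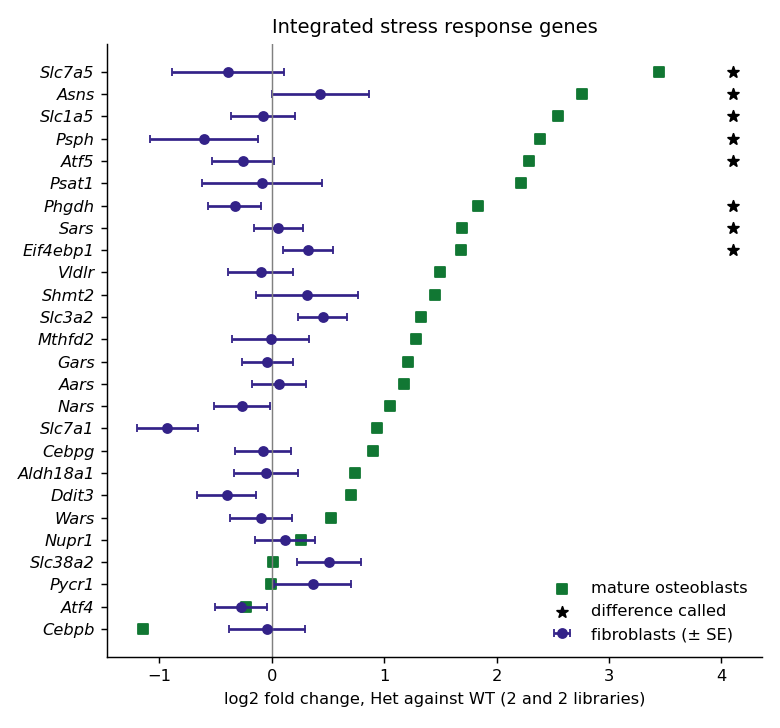
Log2 fold change, Het against WT (x axis), of integrated stress response genes in fibroblasts (circles, ± SE) and in mature osteoblasts (squares) of the same 4 libraries. Stars mark the 8 genes whose difference between cell types was called. Fibroblast changes run from -0.93 to 0.51 around 0, while 20 genes were called higher in osteoblasts.

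Without S2 the 8 genes were all called again, in 16 of the ISR list called lower in fibroblasts (1.84% of all genes). S1 was then the only WT library, assumed to vary as the Het libraries did. Without S1, 2 ISR genes were called (1.40% of all genes lower), and without S3 or S4 none. Of the 8 calls, DESeq2 kept 3, DESeq2's size factors in edgeR 6 and all osteoblasts as the comparison 5. The 8 kept their direction in each of these settings. Hspa9 differed by -1.40 ± 0.28 (edgeR adjusted p = 0.0718) and was not called. Hspa5 differed by 0.11 ± 0.27.

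The level of type I collagen mRNA differed as well, as set by the rule: mature osteoblasts were chosen by Col1a1 over 3.5% of UMIs. Col1a1 made up 16901, 11708, 14991 and 16456 CPM of fibroblasts and 147820, 127038, 77610.3 and 94459 CPM of mature osteoblasts. Of the fibroblasts of S1 to S4, 76.2% to 89.5% had Col1a1 between 0.75% and 3.5% of their UMIs, the range of differentiating osteoblasts in the study. Against differentiating osteoblasts (89, 33, 67 and 102 cells) the Het effect differed in 4 of 9994 genes (0.0400%), and none was of the ISR list. The median difference over the list was then -0.77, none called. Of the 8 genes, Psph stood at -1.90, Asns at -1.86, Slc7a5 at -1.60, Phgdh at -1.10, Atf5 at -0.87, Slc1a5 at -0.64, Sars at -0.60 and Eif4ebp1 at -0.30. This comparison was added after the results were seen. In the 24, 1, 9 and 40 fibroblasts of S1 to S4 with over 3.5% of Col1a1, Atf5 stood at 143, 0, 134 and 45.3 CPM from 13, 0, 8 and 9 UMIs, and Eif4ebp1 at 98.7, 0, 401 and 166 CPM from 9, 0, 24 and 33 UMIs. Slc7a5 had 0, 0, 2 and 4 UMIs there and Asns 2, 0, 5 and 3. These genes did not move alike, S2 had 1 such cell, and no test was made.

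The other genes of lowest p in the difference did not belong to the ISR. Tppp3, which marks tendon sheath, stood at 222, 424, 191 and 153 CPM in fibroblasts and 3.62, 6.93, 85.7 and 58.3 in osteoblasts (difference -4.64 ± 0.33). Crip2 and Ezr (ezrin, which ties membrane to actin) differed by -2.88 ± 0.31 and -3.73 ± 0.46, each higher in Het osteoblasts. Eln behaved likewise (-2.26 ± 0.35), at 1239 to 1508 CPM in fibroblasts and 20.3, 32.0, 161 and 118 in osteoblasts. Gpx3, a secreted glutathione peroxidase, was lower in Het osteoblasts (407, 309, 103 and 84.4 CPM) and not in fibroblasts (64.3, 57.6, 102 and 87.1), a difference of 2.62 ± 0.25. Neutrophil genes S100a8, S100a9, Camp and Ngp differed by 5.15 to 9.01, but with 1 library out S100a8 ran from 2.09 to 5.88 and Ngp from 5.26 to 9.25, and without S4 none of the 4 was called. Some libraries were at or near 0, with S100a9 at 681, 376, 0 and 4.42 CPM in osteoblasts and 147, 52.4, 2.39 and 74.8 in fibroblasts. Haematopoietic cells numbered 2643, 2196, 248 and 719 in S1 to S4, and the part of their RNA in these calls was not tested. Col11a2, a cartilage and bone collagen gene, stood at 9.13, 5.24, 40.1 and 43.0 CPM in fibroblasts and 1962, 1419, 868 and 1157 in osteoblasts (difference 3.17 ± 0.38), and was not called without S3 or without S4. In haematopoietic cells it stood at 44.2, 18.2, 162 and 93.7 CPM, higher in both Het libraries like Col2a1 and Col9a3 there, and the part of free cartilage RNA in the difference was not tested.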

How the data were processed

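Droplet single-cell RNA sequencing was made from 8 parietal bone libraries. The authors deposited raw UMI counts per gene and cell, made with Cell Ranger (version 5.0.0 for S1 to S4, 6.0.1 for S5 to S8, per the file headers; build mm10 per the submitters' processing notes). Replicates were not pooled in the files. Barcodes with fewer than 500 detected genes, or with 10% or more of their UMIs from mitochondrial genes, were dropped, and 46420 of 68625 barcodes passed. Total depth ran from 30480239 to 85162035 UMIs per library.

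Counts were summed per library over the fibroblasts of libraries with 10 or more, then fitted with edgeR 4.0.16 (filterByExpr, TMM, glmQLFit, glmQLFTest; R 4.3.3), adjusted by Benjamini-Hochberg over all genes. DESeq2 1.42.0 was an alternative. Kit version was planned as a covariate but could not enter, since only kit 3 libraries qualified, and likewise agreement between kits could not be asked of named genes. CPM are per 1000000 UMIs of the summed cells, TMM-scaled where said. Each standard error is the fold change divided by the root of its F statistic. Clusters came from scanpy 1.11.5 (1500 variable genes, 15 components, 15 neighbours, Leiden resolution 0.4). Doublets were kept; simulated doublets were marked for an alternative. The fits were tested on simulated data.

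The genes named are those called with a mean of at least 20 CPM, the 20 leading genes, list members, and the 10 of lowest p in the difference from mature osteoblasts. The members, lists and settings were chosen with earlier results of these data known. P-values measure the spread between these libraries, each a pool of pups of 1 genotype. Coordinates are from GENCODE M21, in which 30934 of 31053 gene identifiers were found. The sequence at the other promoter match is not reported here.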

Additional observations from a re-analysis of the deposited data

Results flagged for a closer look

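Library S1 was far above the other 3 WT libraries in the share of fibroblasts (6.89%) by Dixon's test. Chance marks about 1 in 20 such groups. The group mixes kit versions, with 0 fibroblasts in S5 and S6, and within kit version 3 it was S2 that differed from S1, S3 and S4.

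The Het effect differed between fibroblasts and mature osteoblasts of S1 to S4 in 49 genes by the interaction term of the edgeR fit. It was lower in fibroblasts for the ISR genes Atf5 (-2.51), Phgdh (-2.22), Slc7a5 (-3.81), Slc1a5 (-2.65), Sars (-1.71), Psph (-3.02), Eif4ebp1 (-1.39) and Asns (-2.39), and for Tppp3 (-4.64), Crip2 (-2.88) and Ezr (-3.73), all as log2 differences. It was higher in fibroblasts for S100a9 (6.42), Camp (7.83), Ngp (9.01), S100a8 (5.15), Gpx3 (2.62) and Col11a2 (3.17). Col11a2 was higher in Het haematopoietic cells as well (44.2, 18.2, 162 and 93.7 CPM in S1 to S4), and the part of free cartilage RNA in its difference was not tested.

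Het S8, which entered no fit, held 7 fibroblasts, while Het S7 of the same kit held 1 and the WT libraries of that kit held 0.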

How the results depend on the processing

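The number of genes called between Het and WT fibroblasts was 5 by edgeR. DESeq2 called 19, a fit with no low-count filter 183, cells under 5% mitochondrial UMIs 3, cells without markers of another class 1 (lower in Het), and cells without likely doublets 0. Settings that dropped S2 called 204 (at least 4 of 6 markers), 121 (cells thinned to 2000 UMIs), 97 (other classes and erythroid RNA out) and 51 (Pi16-high clusters), the last 2 chosen after seeing the data. Leaving out 1 library gave 0 to 485. The difference from mature osteoblasts, 49 genes, became 22 with DESeq2, 79 with all osteoblasts, 4 with differentiating osteoblasts (added after seeing the data) and 3 to 377 with 1 library out. The share difference of 1.91 points ran from 0.466 to 3.59 points with 1 library out and turned to -0.0475 with haematopoietic cells out of the denominator. The cause of these changes was not tested. Among alternatives, 66 of 100 for the 5 called genes and 78 of 136 for the named differences kept direction and side of the threshold. The others kept direction only. For the called genes, the settings of genotype alone and of 20 or more fibroblasts per library gave the main fit itself. Their agreement was fixed in advance.

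With the replicate number as a block, 2 genes were called. The numbers did not pair the libraries (r = -0.104 for the deviations of same-numbered libraries over 10197 genes). The crossed pairing, chosen after seeing the data, called 50.

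Limits of depth lay in S2, with 159124 fibroblast UMIs, where 1 UMI is worth several CPM and low genes are often at 0.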
